A study of Mus musculus with 10 samples.

Results

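The genes described here encode the proteins of the cytoplasmic ribosome, measured in 32Dcl3 cells, a mouse myeloblast line that needs interleukin 3 (IL-3) to grow, after transcription was blocked with actinomycin D. Members were all genes with a probe set that names 1 gene whose symbol is that of a cytoplasmic ribosomal protein (Rpl or Rps with a number and at most an a, l or x after it, Rplp0 to Rplp2, or Rpsa), and each gene was followed through its probe set of highest mean intensity. The rule found 45 genes among the 12394 genes named by single-gene probe sets. They comprise 21 genes of the small (40S) subunit, 22 of the large (60S) subunit and the P-stalk genes Rplp0 and Rplp2, and they hold 96 probe sets in all. Of the 45, 40 passed the limit of a mean intensity of 50 and were tested (20 of the 40S subunit, 18 of the 60S subunit and both P-stalk genes). Rpl12, Rpl39, Rpl39l, Rpl3l and Rps4l did not pass it. A further 27 ribosomal protein symbols, among them Rpl3, Rpl5 and Rplp1, occur only on probe sets that name several genes and are no members.

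Cells were washed free of IL-3, treated with actinomycin D at 10 µg/ml and divided into high IL-3 (1 ng/ml) and low IL-3 (10 pg/ml), and RNA was taken at 0, 2 and 4 h. The 5 groups are 0 h without added IL-3, high IL-3 at 2 h, high IL-3 at 4 h, low IL-3 at 2 h and low IL-3 at 4 h, with 2 arrays each, 1 from each of 2 experiments. All cells come from 1 line, and every array other than those of 0 h comes from a culture under actinomycin D. The labels are at odds on 0 h: the sample titles place it after actinomycin D, and another label just before it. No untreated culture was followed over the same hours, so the block and the passing of time cannot be told apart.

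Ribosomal proteins assemble with ribosomal RNA in the nucleolus into the 40S subunit, which decodes the mRNA, and the 60S subunit, which joins amino acids. Their mRNAs are among the most abundant of a growing cell, and most are known as TOP mRNAs: they begin with a run of pyrimidines (C and T in the gene) through which growth signals set their translation. They are generally known as long-lived transcripts, and myeloblasts, which divide quickly, make ribosomes at a high rate.

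The genes lie on 17 chromosomes, and RefSeq promoters (build GRCm38.p6) were given for 39 of the 45. In the 30 bases from 10 before to 20 after an annotated start, an unbroken run of at least 6 C or T searched on the strand of the transcript only, was present for 26 of the 39 members, or 66.7%, against 32.1% of the 27025 genes with a promoter in the table. Of the 47 member promoters 27 held such a run, or 57.4%, against 28.7% of all 32851 promoters. The run is a match of letters in a window around an annotated start and no mapped TOP motif. The windows shown are those of the members on which the results below turn, with the longest C/T run in capitals, and of Rpl7a as an example of a long run. The window of Rpl14, the gene with the largest rise, lies on the plus strand at chr9:120571507-120571536, Rps6 on the minus strand at chr4:86857348-86857377, Rps28 on the minus strand at chr17:33824543-33824572, Rps15 on the plus strand at chr10:80292421-80292450, Rpl12 on the plus strand at chr2:32961702-32961731 and Rpl7a on the plus strand at chr2:26910797-26910826.
Rpl14: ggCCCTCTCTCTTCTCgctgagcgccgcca
Rps6: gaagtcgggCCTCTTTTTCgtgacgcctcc
Rpl12: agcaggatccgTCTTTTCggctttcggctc
Rpl7a: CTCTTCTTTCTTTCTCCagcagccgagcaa
Rps28: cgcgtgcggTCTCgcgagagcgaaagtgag
Rps15: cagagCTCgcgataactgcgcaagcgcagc

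Rpl14 and Rps6, which rose, and Rpl7a, which did not pass any test, all held long runs, while the longest runs of Rps28, which fell, and of Rps15, which rose in low IL-3, had 4 and 3 bases. Across the tested members the 23 with a run had a median log2 change over 4 h in low IL-3 of 0.01, and the 12 with a promoter and no run had one of -0.02. In high IL-3 the medians were -0.02 and -0.02.

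The array values are linear intensities, normalized by the authors in 1 batch. Array medians ranged from 48.8 to 70.6, and each array had 11280 to 12155 probe sets at 50 or above. Of 14 tested transcripts listed as short-lived, 14 fell over 4 h in low IL-3, with Myc, a growth regulator of short mRNA half-life, at 4.00% of 0 h in low and 3.66% in high IL-3. Of the myeloblast and granule markers 7 of 9 on the array reached a mean of 50, against 0 of 5 lymphoid, 3 of 6 macrophage, 2 of 6 mast cell and 2 of 6 erythroid and megakaryocyte markers.

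In the deposited values the signal of most ribosomal protein transcripts moved little through the block. This depended on the scaling: with a common 75th percentile, described below, 40 of 40 tested members rose in low IL-3. On all 8 arrays taken after 0 h, 29 of the 40 tested members lay between 90% and 110% of the 0 h value of their own experiment, against 3.37% of all tested probe sets. Brightness goes with this count: 35 of the 40 members had a mean intensity of at least 4000, and they hold all 29, while 0 of the 5 dimmer members met the limits. Of the 324 other probe sets that bright 39.5% met the same limits. In 22 members the mean was at least 8000, near the array maxima of 10098 to 11235, and what brightness contributes to the count was not tested. In these bulk samples fewer cells and less RNA per cell cannot be told apart. The largest difference among the 5 group means, on the log2 scale, had a median of 0.08 over the members (0.02 to 0.82) and of 0.47 over all tested probe sets, and it was under 0.2 for 35 of 40 members against 15.1% of all. Over the members of at least 4000 the median was 0.08, and over the other probe sets of that brightness 0.12. Rps24, Rpl6 and Rpl27 had the smallest differences.

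Rps24, a 40S protein whose gene is mutated in some cases of Diamond-Blackfan anaemia, read 8651 at 0 h in experiment 1 and 9351, 8752, 8940 and 8994 at 2 h high, 4 h high, 2 h low and 4 h low IL-3. In experiment 2 it read 8746 at 0 h and 8289, 8836, 8606 and 8551 in the same order. The 0 h array is the lowest of experiment 1 and lies among the later ones in experiment 2. Its mean change at 4 h was 0.01 ± 0.05 (SE, log2) in low and 0.02 ± 0.05 in high IL-3.

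**Figure D1:**
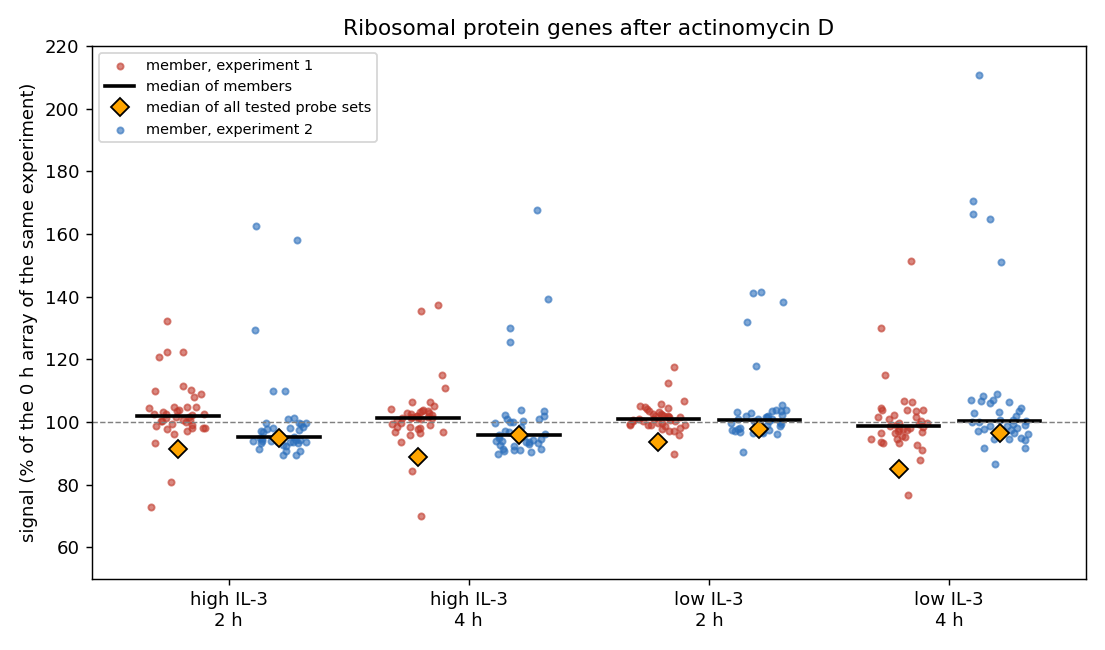
Signal of the 40 tested ribosomal protein genes as a percent of the matching 0 h value (linear axis) on each of the 8 later arrays, by group and experiment. Points are genes, bars the median of the genes and diamonds the median of all 11856 tested probe sets. The medians of the genes lie between 95.0% and 102%, those of all tested probe sets between 85.0% and 97.7%.

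The plot of signal by array shows how the experiments differ. In experiment 1 the members' medians in high IL-3 were 102% of 0 h after 2 h and 101% after 4 h, those in low IL-3 were 101% and 98.6%, all above the medians of all tested probe sets, which ran from 85.0% to 93.6%. In experiment 2 the members' medians were 95.0% and 95.9% in high IL-3 and 101% and 100.2% in low IL-3. There the medians of all tested probe sets were 95.0% and 95.8% in high IL-3, level with the members, and 97.7% and 96.6% in low IL-3.

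The test that the 5 group means are equal, limma's F test on log2(intensity + 16) that blocks on experiment, passed the adjusted p threshold of 0.05 for 3 of 40 members, Rpl14, Rps6 and Rps28, against 44.2% of all tested probe sets. Without the block it passed for 0 of 40 members, against 9.32% of all. P-values rest on 2 divided cultures in all.

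No member passed the threshold for IL-3 dose. When high IL-3 was set against low IL-3, over both times, 0 of 40 members were higher and 0 lower by limma's test, where 0.692% of all tested probe sets were higher and 0.0169% lower. At an unadjusted p under 0.05 there was 1 member, Rps25. The log2 differences of the 40 had a median of -0.02, with a range of -0.26 to 0.03, and 9 were positive and 31 negative. The median of all tested probe sets was -0.01. The standard errors of the 35 bright members ran from 0.03 to 0.04. A difference must reach several standard errors to pass the adjusted threshold, so differences well above 0.04 could also go uncalled.

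Rps25, a 40S protein, is 1 of the 5 dim members tested. In experiment 1 it read 909 at 0 h, then 662 and 767 in high IL-3 after 2 h and 4 h and 816 and 799 in low IL-3. In experiment 2 it read 525 at 0 h, then 492 and 684 in high IL-3 and 619 and 874 in low IL-3. The high IL-3 array was the lower one in all 4 pairs of the same time and experiment, although the groups overlap. The difference, -0.26 ± 0.12 (SE, log2), had an adjusted p of 0.556 in limma's test, and the adjusted p ran from 0.278 to 1 over the alternative settings.

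**Figure D2:**
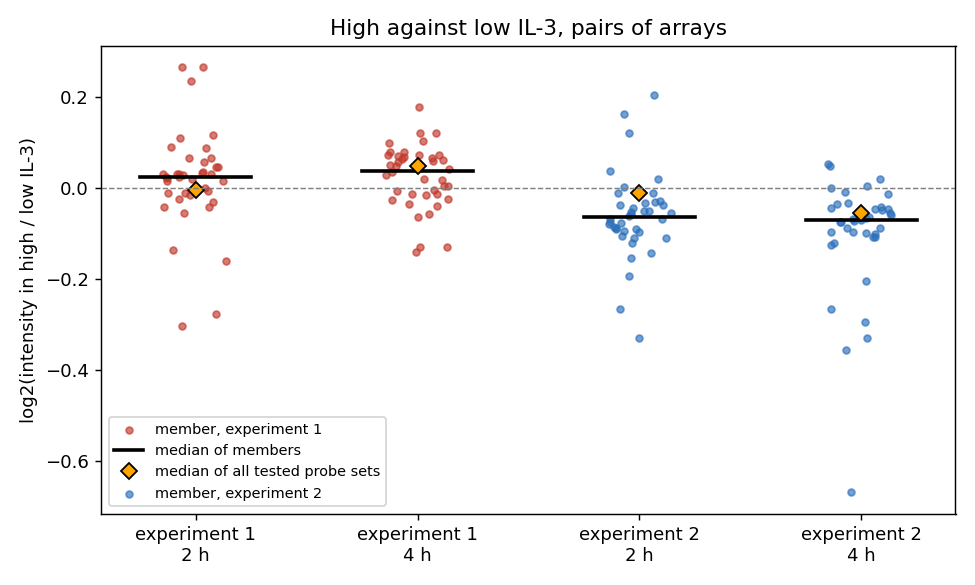
Log2 ratio of intensity in high over low IL-3 for the 40 tested genes in each of the 4 pairs of arrays that share experiment and time. Points are genes, bars their median and diamonds the median of all tested probe sets. In experiment 1, 26 of 40 genes lie above 0 at each time, and in experiment 2, 6 at 2 h and 4 at 4 h.

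The sign of the small differences went with the experiment, as the plot of pairs shows. In experiment 1, 26 of 40 members were higher in high IL-3 at 2 h (median log2 ratio 0.02) and 26 at 4 h (0.04). In experiment 2, 6 were higher at 2 h (-0.06) and 4 at 4 h (-0.07). Of all tested probe sets 49% and 60% were higher in high IL-3 in experiment 1 and 47.6% and 38.9% in experiment 2. Rps20, a 40S protein, was higher in high IL-3 in 4 of 4 pairs (9.83% of all tested probe sets), and Rpl13a, Rps7 and Rps25 in 0 of 4 (7.51% of all). The 4 were singled out after their values were seen.

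Over the 4 h in low IL-3, 3 of 40 members rose, against 15.3% of all tested probe sets, and 3 fell, against 38.3%. The members' median log2 change was 0.01 and that of all tested probe sets -0.12. In high IL-3 2 members rose, against 9.67% of all, and 1 fell, against 35.4%, with medians of -0.02 and -0.10. Both comparisons share the 0 h arrays. Rising and falling refer here to array signal. Transcription was blocked, and the authors treat any value above 0 h at 2 h or 4 h as measurement noise. Without the experiment block 1 member rose and 0 fell in low IL-3, against 1.25% and 18.1% of all, and 0 rose and 0 fell in high IL-3, against 0.321% and 15.2%. By subunit, the median change in low IL-3 was -0.02 for 20 genes of the 40S and 0.01 for 18 genes of the 60S subunit, with 5 and 1 calls. In high IL-3 the medians were -0.03 and -0.01, with 2 and 1 calls.

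**Figure D3:**
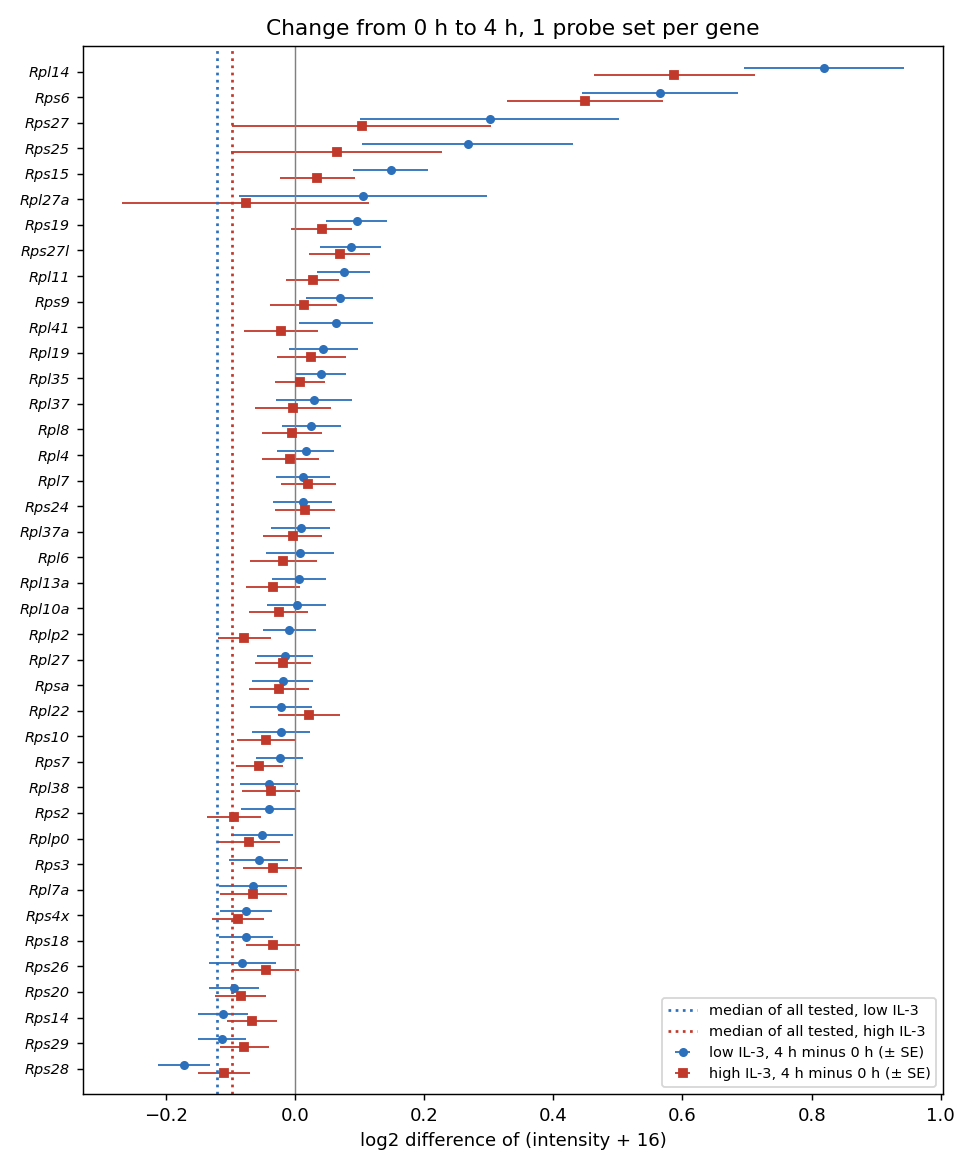
Log2 change of (intensity + 16) from 0 h to 4 h in low IL-3 (circles) and high IL-3 (squares) for the 40 tested genes, with the standard error of the limma fit, sorted by the change in low IL-3. Dotted lines give the medians of all tested probe sets. Rpl14 and Rps6 stand to the right of all others, and Rps28 is lowest.

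Rpl14, a 60S protein, had the largest rise in signal. In experiment 1 it read 658 at 0 h, 805 and 904 in high IL-3 after 2 h and 4 h, and 774 and 997 in low IL-3. In experiment 2 it read 479 at 0 h, 757 and 802 in high IL-3, and 677 and 1009 in low IL-3. All 8 later arrays lie above both 0 h arrays. The signal at 4 h was 181% ± 42 (SD, n = 2) of 0 h in low and 152% ± 21.4 in high IL-3. The log2 changes were 0.82 ± 0.12 (SE; limma, adjusted p = 3.93e-05) and 0.59 ± 0.12 (limma, adjusted p = 0.00104). Over the alternative settings the adjusted p ran from 1.64e-06 to 0.0206 in low IL-3 and from 7.82e-06 to 0.0804 in high IL-3. The call in high IL-3 was lost in the fit without the experiment block, at the highest of these.

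Rps6, the 40S protein that S6 kinase phosphorylates when growth signals are on, rose as well. In experiment 1 it read 855 at 0 h, 1131 and 1159 in high IL-3, and 961 and 1112 in low IL-3. In experiment 2 it read 704 at 0 h, 912 and 979 in high IL-3, and 974 and 1201 in low IL-3. Each later array was above both 0 h arrays, and within an experiment the level rose from 2 h to 4 h at both doses. The log2 change was 0.56 ± 0.12 in low IL-3 (limma, adjusted p = 0.000957, 8.68e-06 to 0.0603 over the settings) and 0.45 ± 0.12 in high IL-3 (adjusted p = 0.00633, 2.73e-05 to 0.143). The call in high IL-3 was lost when the experiment 1 array of high IL-3 at 4 h was left out (adjusted p = 0.0805 by limma) or that of 0 h from experiment 2 (0.065), and both calls were lost without the block. With the mean of its probe sets the change in high IL-3 was 0.28 (limma, adjusted p = 0.118).

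Both risers are dim next to the other members. All 5 tested members under a mean of 4000 had positive changes in low IL-3, and 4 of them in high IL-3. Of all 40 members, 22 and 14 were positive. Only 470 of the 11856 tested probe sets had a mean of at least 4000. Of all tested probe sets, 33% in experiment 1 and 46.4% in experiment 2 lay above 0 h at 4 h in low IL-3. In high IL-3 the shares were 34.2% and 44.9%. Why these 5 dim members gave higher signal was not tested. The other dim members tested did not pass the threshold at 4 h. Rps27, a 40S protein, had a log2 change of 0.30 ± 0.20 in low and 0.10 ± 0.20 in high IL-3, and Rps25 of 0.27 ± 0.16 and 0.06 ± 0.16. Rpl27a, singled out here for its low intensity, had 0.11 ± 0.19 and -0.08 ± 0.19. Its readings in experiment 1 were 153 at 0 h, 185 and 108 in high IL-3 and 154 and 118 in low IL-3, and in experiment 2 168 at 0 h, 273 and 211 in high IL-3 and 237 and 254 in low IL-3, so that the experiments went apart at 4 h.

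Rps15, a 40S protein and the third member to rise in low IL-3, was named because it passed. It read 5777 at 0 h, 7059 and 6070 in high IL-3 and 5880 and 6646 in low IL-3 in experiment 1, and 6372, 6451, 6365, 6293 and 6803 in the same order in experiment 2. Both low IL-3 arrays of 4 h exceed both 0 h arrays. The log2 change was 0.15 ± 0.06 (limma, adjusted p = 0.0403, 0.000236 to 0.349 over the settings), and it was lost without the 0 h array of experiment 1 (change 0.09) or either low IL-3 array of 4 h (changes 0.14 and 0.15). In high IL-3 the change was 0.03 ± 0.06, and whether the doses differ at 4 h was not tested.

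The fallers were Rps28, Rps29 and Rps14, bright genes of the 40S subunit. The human counterpart of Rps14 is among the genes lost in the 5q- syndrome of the bone marrow. Rps28 read 10006 at 0 h, 9721 and 9583 in high IL-3, and 9804 and 9114 in low IL-3 in experiment 1. In experiment 2 it read 10075 at 0 h, 9027 and 9029.7 in high IL-3, and 9101 and 8713 in low IL-3. All 8 later arrays lie below both 0 h arrays, and those of 4 h in low IL-3 at 88.8% ± 3.26 (SD, n = 2) of 0 h. The log2 change was -0.17 ± 0.04 in low IL-3 (limma, adjusted p = 0.0018, 0.000454 to 0.156 over the settings) and -0.11 ± 0.04 in high IL-3 (adjusted p = 0.0337, 0.00722 to 0.429). Without the 0 h array of experiment 2 both calls were lost, with changes of -0.12 and -0.06, and the high IL-3 call was also lost without either high IL-3 4 h array or either low IL-3 2 h array.

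Rps29 stood at 92.5% ± 1.20 (SD, n = 2) of 0 h at 4 h in low IL-3 and Rps14 at 92.5% ± 1.10. Their log2 changes were -0.11 ± 0.04 (limma, adjusted p = 0.0194, 0.00579 to 0.341 over the settings) and -0.11 ± 0.04 (adjusted p = 0.0235, 0.0044 to 0.338). Both calls were lost without either low IL-3 array of 4 h and without the 0 h array of experiment 2. The low IL-3 calls of Rps28, Rps29, Rps14 and Rps15 and the high IL-3 call of Rps28 were also lost without the block, without the variance trend and with the mean of each gene's probe sets. Without the intensity filter the high IL-3 call of Rps28 and the low IL-3 calls of Rps29, Rps14 and Rps15 were lost. Scaling to Gapdh lost the same calls except that of Rps15. Quantile normalization lost the high IL-3 call of Rps28 and the low IL-3 call of Rps29. The changes of Rps29 and Rps14 lie near the median of all tested probe sets, -0.12. Rps29, with a mean of 10398, reads close to the maximum of an array, and what this closeness does to its changes was not tested.

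Of the members named for known roles, Rps6 and Rps14 passed the threshold in low IL-3, as given above. The others did not pass. Rpl11, a 60S protein that binds the p53 regulator Mdm2 when ribosome assembly fails, read 7333 at 0 h and 7556, 7538, 7461 and 7665 later in experiment 1 (high 2 h, high 4 h, low 2 h, low 4 h), and 7289 at 0 h and 7355, 7364, 7348 and 7747 later in experiment 2. All 8 later arrays were above the 0 h array of their experiment and at most at 106% of it, and the log2 change at 4 h was 0.08 ± 0.04 in low and 0.03 ± 0.04 in high IL-3. Rps27l, a p53-responsive relative of Rps27, had 0.09 ± 0.05 and 0.07 ± 0.05. Rps19, the gene most often mutated in Diamond-Blackfan anaemia, had 0.10 ± 0.05 and 0.04 ± 0.05, and Rps3, a 40S protein also linked to DNA repair, -0.06 ± 0.05 and -0.03 ± 0.05.

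Rplp0, the base of the P-stalk that recruits elongation factors to the 60S subunit, had log2 changes of -0.05 ± 0.05 in low and -0.07 ± 0.05 in high IL-3, and Rplp2, carried on that base, -0.01 ± 0.04 and -0.08 ± 0.04. Rpsa, a 40S protein also known as the laminin receptor, had -0.02 ± 0.05 and -0.02 ± 0.05. The lowest values in high IL-3 after Rps28 were those of Rps2, -0.09 ± 0.04, Rps4x, -0.09 ± 0.04, and Rps20, -0.08 ± 0.04, none past the threshold.

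How many members rose or fell depended on the scaling of the arrays. In the deposited values the median log2 changes over 4 h in low and high IL-3 were -0.12 and -0.10 for all tested probe sets and 0.01 and -0.02 for the members, both experiments together. Scaled to a common 75th percentile, which itself ran from 315 to 499.8 over the arrays, 40 of 40 members rose in low IL-3 (49.2% of all tested probe sets) and 38 in high IL-3 (49.9%), with median log2 changes of 0.45 and 0.41, and Rps28, Rps29 and Rps14 then rose. The median of all tested probe sets moved to 0.30 in low and 0.31 in high IL-3, below the members. After quantile normalization 11 members rose and 2 fell in low IL-3 (40.5% and 26.6% of all). The order turned there, with members' medians of 0.04 in low and 0.04 in high IL-3 below those of all tested probe sets, 0.15 and 0.16. Scaled to Gapdh, 4 rose and 1 fell (15.6% and 36.4%).

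**Figure D4:**
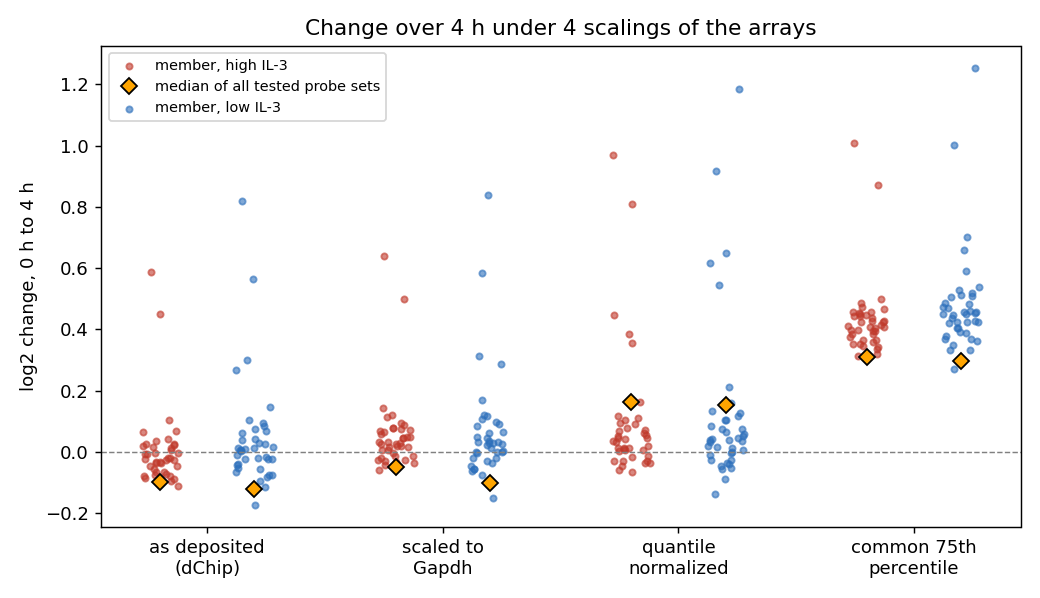
Log2 change from 0 h to 4 h of the 40 tested genes in high and low IL-3 under 4 scalings of the arrays. Points are genes and diamonds the median of all tested probe sets under that scaling. Under the deposited values, Gapdh scaling and quantile normalization most genes lie near 0, and under the common 75th percentile they lie around 0.4.

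Probe sets of the same gene mostly differed little. Of the 18 members with more than 1 tested probe set, 15 had all their log2 changes in low IL-3 within 0.2 of each other. This limit is wide beside the changes of the 35 bright members, which ran from -0.17 to 0.15. The other tested sets of the fallers fell less and did not pass the threshold. They had -0.02 for Rps14, -0.06 and -0.07 for Rps28, and -0.10 and -0.06 for Rps29. The other set of Rps15 had 0.14 and did not pass either. The exceptions to the limit of 0.2 were Rpl41, Rps20 and Rpl22. Rpl22, a 60S protein, had -0.02 ± 0.05 in its brightest probe set and 0.26 in the dimmer one (mean 1512), which did not pass the threshold.

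Rpl41, which encodes a very short basic peptide of the 60S subunit, had probe sets of unlike values. Its brightest set (mean 7720.) had a log2 change of 0.06 ± 0.06 in low IL-3 and its next (mean 5726) 0.05. A dim set (mean 51.2) read 249.8 at 0 h and 21.8 to 43.3 later in experiment 1, and 47.0 at 0 h and 14.2 to 30.4 later in experiment 2. Its fitted log2 changes were -1.48 in low and -1.66 in high IL-3. The set reached the mean of 50 only through its 0 h reading in experiment 1, so its fall is given as a description, with no test.

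Rps20 had a dim set with rising values. Its bright sets (means 9212 and 8236) had log2 changes of -0.09 and -0.11 in low IL-3, of which the second passed the threshold, and a dim set (mean 104.6) read 93.2 at 0 h and 113.9 to 160.5 later in experiment 1, and 37.5 at 0 h and 61.5 to 137.5 later in experiment 2. All later arrays of an experiment were above its 0 h array, and the log2 changes were 1.11 in low and 0.85 in high IL-3, both past the threshold. Where on the transcript each probe set lies is not given in the tables used here.

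**Figure D5:**
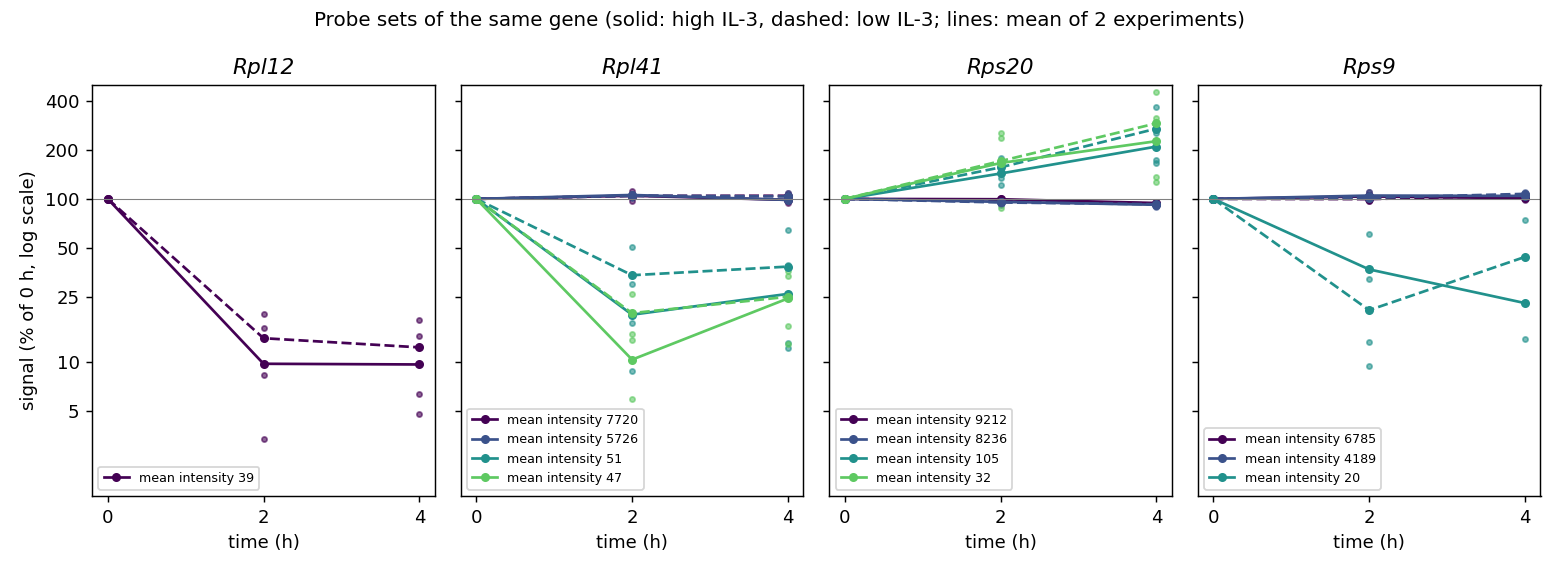
Signal as a percent of 0 h (log axis) against time for each probe set of Rpl12, Rpl41, Rps20 and Rps9, coloured by mean intensity. Solid lines are high and dashed lines low IL-3, as means of the 2 experiments, and small points are single arrays. The bright probe sets stay near 100% and the dim ones move away from it in either direction.

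The 19 member probe sets under a mean of 50 were not tested. Of these, 4 read at least 50 at 0 h in experiment 1 and are given here as a description only, since a set chosen for a mean under 50 and a 0 h reading above it is likely, by that choice alone, to read lower on the other arrays. In the plot of probe sets of the same gene, 3 such sets appear. The single probe set of Rpl12, a 60S protein at the base of the stalk, read 227 at 0 h and 7.64 to 18.9 later in experiment 1, and 63.1 at 0 h and 9.15 to 12.4 later in experiment 2. A dim Rpl41 set read 229.5 at 0 h and 13.6 to 38.0 later in experiment 1, and 60.9 and then 8.97 to 21.9 in experiment 2. A dim Rps9 set read 80.4 at 0 h and 7.60 to 18.5 later, and 25.1 and then 5.77 to 18.7. In experiment 2, which also enters that mean, the later arrays of these sets lie under 0 h too. The fourth, of Rps24, read 58.7 at 0 h and 14.8 to 35.4 later in experiment 1 but 6.83 and then 9.30 to 31.3 in experiment 2, so that the experiments ran opposite ways. The probe sets of Rpl39, Rpl39l, Rpl3l and Rps4l read 1 to 12 on all 10 arrays and give no direction.

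Beside the ribosomal proteins, 16 other TOP transcripts, mostly translation factors, were tested, with a median log2 change of -0.01 in low IL-3. Among them 1 rose there, Fau, which carries a ribosomal protein fused to a ubiquitin-like one (0.24), and 2 fell, the nucleolar chaperone Npm1 (-0.31) and the initiation factor Eif4b (-0.27). The proteins of the mitochondrial ribosome, encoded by 74 tested genes, had a median of -0.42, with 11 higher and 41 lower. Over the same 4 h in low IL-3, 15.3% of all tested probe sets were higher and 38.3% lower. Of 8 control transcripts tested, 3 rose in low IL-3, Sdha (0.29), B2m (0.20) and Ywhaz (0.19), 1 fell, Tbp (-2.41), and 4 did not pass, among them Gapdh (-0.01) and Actb (-0.08). Those that passed were named after their values were seen.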

How the data were processed

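RNA of 10 samples, taken from 2 divided cultures, was hybridised to Affymetrix mouse 430A 2.0 arrays. The values deposited by the authors are intensities on a linear scale for 22690 probe sets, modelled and normalized in 1 batch by dChip under default settings (version not given in the sources used here). Samples were grouped by their titles. The members and gene lists were chosen with earlier results of these data known. Genes were named through the platform annotation, and probe sets with several genes were left out.

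The 11856 probe sets that had a mean of at least 50 were tested as log2(intensity + 16) by limma 3.58.1 (R 4.3.3), in 1 fit over 5 groups that blocks on experiment, with eBayes (variance trend) and Benjamini-Hochberg adjustment over all 11856 at 0.05. The experiment numbers pair the arrays, because each experiment divided 1 culture among its 5 arrays. Arrays of the same number deviated together from their group means (correlations of 0.762 to 0.887). The steps were tested on simulated data. The number of arrays limits the precision. The genes named are members past the threshold for IL-3 dose, the 4 highest and 4 lowest changes to 4 h at each dose, members with known roles (Rplp0, Rplp2, Rpsa, Rpl11, Rps27l, Rps6, Rps3, Rps14, Rps19, Rps27), the 3 whose own probe sets differed most, the 3 with the smallest range, and others where said. The alternatives were pseudocounts of 1 and 64, no filter or one at 200, and 3 other scalings. Other fits omitted the block or the variance trend, or left out each array in turn. Further ones used probe sets with a plain suffix or the mean of a gene's probe sets. An experiment taken alone has 1 array per group and allows no test, so only its changes are given. Python 3.11.15 with pandas 2.3.3 and matplotlib 3.10.9 served for the rest.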

Additional observations from a re-analysis of the deposited data

How the results depend on the processing

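High against low IL-3 gave 0 members higher and 0 lower under every alternative fitted to all 10 arrays. The members' median log2 difference was -0.039 under 75th percentile scaling, -0.007 after quantile normalization and -0.006 under Gapdh scaling. With each array left out in turn it ran from -0.042 to -0.0009. Within an experiment, which allows no test, the medians of the pairs at 2 h and 4 h were 0.02 and 0.04 in experiment 1 and -0.06 and -0.07 in experiment 2. Without the replicate block, members higher and lower in low IL-3 after 4 h numbered 1 and 0 (1.25% and 18.1% of all). In high IL-3 they numbered 0 and 0 (0.321% and 15.2%), and 0 passed the test over 5 groups (9.32%). Under 75th percentile scaling 40 were higher and 0 lower in low IL-3 (median 0.45, against 49.2% and 24.1% of all). In high IL-3 they numbered 38 and 0 (median 0.41, against 49.9% and 22.1%), and 40 passed over 5 groups (70.4%). Quantile normalization gave 11 higher in low IL-3 (median 0.041, against 40.5% of all). It gave 8 and 0 in high IL-3 (median 0.041, against 39.6% and 24.1%) and 8 over 5 groups (61.7%). Gapdh scaling gave 1 lower in low IL-3 (median 0.028, against 36.4% of all) and 0 lower in high IL-3 (31.8%). Without the variance trend 0 were lower at either dose and 1 passed over 5 groups. The mean of a gene's probe sets gave 1 lower in low and 2 in high IL-3, and the 11 genes with a plain suffix 0 and 0 (median 0.11 in low IL-3). Shares of all probe sets are not given for the fit without the variance trend, the mean of probe sets and the plain suffix. In the fit of the deposited values 38.3% of all were lower in low and 35.4% in high IL-3, and 44.2% passed over 5 groups. Experiment 1 alone had a median of -0.020 in low IL-3. With each array left out in turn, members higher and lower numbered 2 to 4 and 0 to 4 in low IL-3 (median -0.038 to 0.027) and 1 to 2 and 0 to 4 in high IL-3 (median -0.06 to 0.01), and 2 to 6 passed over 5 groups.

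Negative changes turned positive under 75th percentile scaling: in low IL-3 Rpl22 0.42, Rpl27 0.43, Rplp0 0.39, Rplp2 0.44, Rps14 0.33, Rps2 0.40, Rps20 0.35, Rps28 0.27, Rps29 0.33, Rps3 0.39, Rps4x 0.37 and Rpsa 0.43, and in high IL-3 Rpl27 0.41, Rpl41 0.41, Rpl6 0.41, Rplp0 0.36, Rplp2 0.35, Rps14 0.36, Rps2 0.34, Rps20 0.35, Rps28 0.32, Rps29 0.35, Rps3 0.40, Rps4x 0.34 and Rpsa 0.41. With the mean of a gene's probe sets, Rpl41 turned to -0.75 and Rpsa to 0.37 in low IL-3, and Rps20 to 0.41 in low and 0.31 in high IL-3. The 75th percentile fell over the hours in the deposited values, and 75th percentile scaling sets it equal on all arrays. Which scaling follows the amount of RNA was not tested. For the mean of probe sets, the dim sets enter it.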

Other observations

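Ribosomal protein symbols also occur on 102 probe sets that name several genes, which the report leaves out. Of these 92 were tested, and 78 had a mean intensity of at least 4000. Their largest difference among the 5 group means had a median of 0.07 on the log2 scale, and 0 were higher and 0 lower in high than in low IL-3 by limma's test. The 78 bright ones had a median log2 change over 4 h in low IL-3 of -0.01 (range -0.14 to 0.09), with 0 higher and 1 lower, where 15.3% of all tested probe sets were higher and 38.3% lower. The 14 dim ones had a median of 0.36, with 7 higher and 0 lower, and in high IL-3 of 0.23, with 6 higher, against 9.67% of all.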
